A study of Mus musculus with 47 samples.

Results

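The 10 genes described here, all of the striatal cAMP cascade, were followed across the 6 genotypes of a mouse striatum RNA-seq series. They encode DARPP-32 (Ppp1r1b), phosphatase inhibitor 1 (Ppp1r1a), the cAMP-regulated phosphoproteins ARPP-19 (Arpp19) and ARPP-21 (Arpp21), 4 subunits of protein kinase A (Prkaca, Prkacb, Prkar1b and Prkar2b), the striatum-enriched tyrosine phosphatase STEP (Ptpn5) and the catalytic A-alpha subunit of calcineurin (Ppp3ca). They were listed by name and function with no measured value in the rule, although earlier results of these data were known when the list was made. These are 10 of 48795 genes in the count table, of which 33998 had at least 1 count. All 10 passed the low-count filter that left 19193 genes for testing.

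The series comprised 47 libraries from the striatum of 6-month-old mice on a background labelled C57BL, with no pooling of animals stated. Wild type, Ccdc82+/- and Ccdc82-/- mice served as controls, and each of these 3 genotypes was also studied with Q140, which makes the 6 groups. Every group had 8 libraries (4 female, 4 male) except Q140 Ccdc82-/-, which had 7 (3 female, 4 male). Q140 is a knock-in of an expanded CAG repeat into the mouse huntingtin gene, a model of Huntington's disease, and the labels give these mice as heterozygous. Ccdc82+/- and Ccdc82-/- mice lack 1 or both intact copies of Ccdc82, which encodes a coiled-coil protein. The question was what Q140 did to the striatal transcriptome and whether loss of Ccdc82 altered that.

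In a medium spiny neuron, the output neuron that makes up most of the striatum, dopamine and adenosine receptors set the level of cAMP. cAMP binds the regulatory subunits of PKA and frees its catalytic subunits. PKA then phosphorylates DARPP-32 and inhibitor 1, which become inhibitors of protein phosphatase 1, while calcineurin removes that phosphate again. ARPP-19 in its phosphorylated form inhibits PP2A, and STEP dephosphorylates MAP kinases and glutamate receptor subunits. RNA measures none of these phosphorylation states. In bulk tissue, fewer cells of a type and less RNA per cell cannot be told apart.

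Total counts per library ran from 41327333 to 61701245 (median 47701604), and no pair of libraries of the same genotype agreed within sampling noise. Pairs of different genotypes were not compared in this way. Ccdc82 checked the labels, in CPM (counts scaled to the library total after adjustment by TMM library factors). Its mean level was 12.01 ± 0.77 CPM (SD, n = 8) in wild type, 8.42 ± 0.52 in Ccdc82+/- (n = 8) and 4.57 ± 0.67 in Ccdc82-/- (n = 8). Reads on the gene were thus not lost in the homozygotes. All 16 medium spiny neuron markers outside the 10 genes were detected. Their summed level, in CPM of the library total without those factors, ran from 14814 to 16373 in wild type and from 10199 to 12040 in Q140. Against wild type 15 of 16 fell and 1 (Tac1, a neuropeptide precursor) rose. Some markers of other cells were also called lower with Q140 in the mean of the 3 backgrounds, where 25.5% of all genes were. These were 9 of 9 for microglia, 7 of 8 for endothelial and mural cells, 5 of 9 for astrocytes (1 higher) and 5 of 8 for oligodendrocytes. Striatal interneurons had 5 of 10 lower, and oligodendrocyte precursors 2 of 5 lower and 2 higher. Median sums in wild type and Q140 were 432 and 430 CPM for interneurons and 214 and 228 CPM for precursors. They were 356 and 343 CPM for microglia, 280 and 253 CPM for endothelial and mural cells, and 6628 and 6152 CPM for oligodendrocytes. All marker sums are without the TMM factors that the calls used, so the 2 are not on the same scale. The astrocyte sum had a median of 4581 CPM in wild type and 4195 CPM in Q140. The part of these marker shifts in the changes below was not tested. The choroid plexus markers summed to 334 CPM in Ccdc82-/- male replicate 1, with the next highest library at 68.1 CPM (wild type male replicate 1). Leaving out the first library in turn changed no call among the 10 genes. Leaving out the second ended 1 call, on Prkaca.

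Genes were compared on the length-scaled FPKM scale (fragments scaled to gene length and library total). Ppp1r1b stood first in wild type at 895 ± 47 FPKM (SD, n = 8). Ppp3ca followed at 274 ± 9.7 FPKM, Ptpn5 at 169 ± 14, Arpp19 at 145 ± 5.9 and Arpp21 at 115 ± 3.4. Each of these levels was separated from the next by all 8 libraries. The place of Arpp21 depends on its length in that scaling, 17428 bases for a gene with 31 annotated transcripts, against 2928 bases for Ppp1r1b. Without division by length, Arpp21 had a wild type mean of 2044 CPM, above Ptpn5 (1003 CPM) and Arpp19 (734 CPM). The PKA subunits and inhibitor 1 were lower: Prkar1b stood at 78.9 ± 4.4 FPKM, Prkacb at 73.1 ± 1.4, Ppp1r1a at 62.6 ± 4.4, Prkaca at 53.8 ± 2.9 and Prkar2b at 48.1 ± 1.1. The ranges of Prkar1b and Prkacb overlapped, and Prkar1b was the higher in 6 of 8 libraries. Those of Ppp1r1a and Prkaca overlapped as well, although Ppp1r1a was the higher in each of the 8 libraries. In Q140 the first 3 kept their places. Prkar1b had a mean of 100.1 FPKM, above that of Arpp21 (73.7 FPKM), and Ppp1r1a, at 43.3 FPKM, came last. Without division by length Prkar1b (374.5 CPM) stood below Arpp21 (1261 CPM) in Q140. The ranges of Prkar1b (93.0 to 104.0 FPKM) and Arpp19 (96.0 to 104.9 FPKM) overlapped in Q140, with Arpp19 the higher in male replicate 4.

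**Figure D1:**
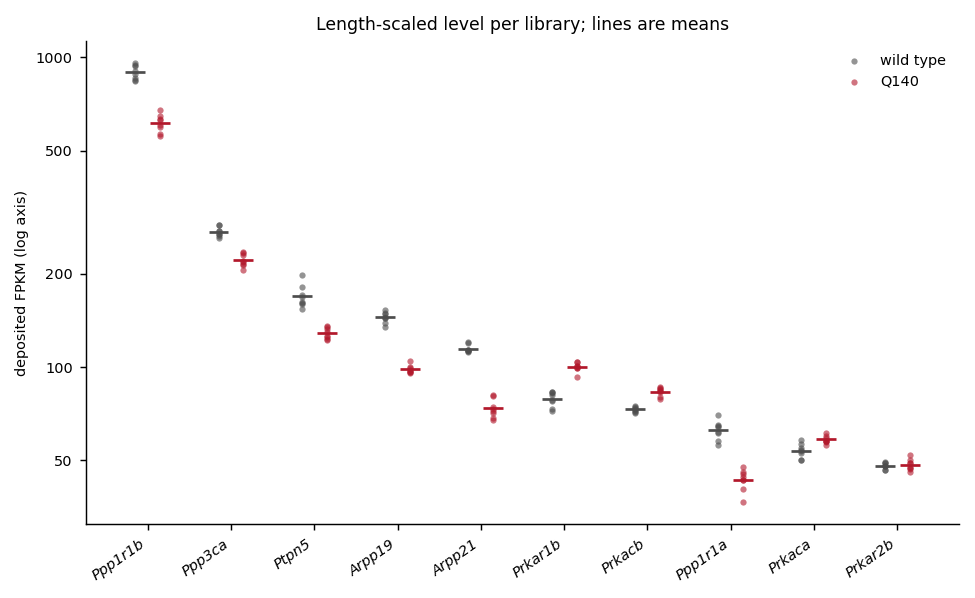
Deposited FPKM on a log axis for the 10 genes in wild type (grey) and Q140 (red), 1 point per library (n = 8 each) and a line at each mean. Ppp1r1b lies highest in both genotypes (means 895 and 613 FPKM), and Prkar1b, below Arpp19 and Arpp21 in wild type at 78.9 FPKM, lies above Arpp21 and overlaps Arpp19 in Q140 at 100.1 FPKM.

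The promoters of members on either side of the response are printed so that their base composition can be read beside the values. RefSeq (GRCm38.p6) gave a promoter window for 7 of the 10 genes, and those without one were Ppp1r1b, Ppp1r1a and Ppp3ca. Shown, 5′ to 3′ on the strand of the gene, are the 250 bases before the annotated start nearest to the gene's 5′ end for 2 genes that fell with Q140 (Arpp21, chr9:112233723-112233972, minus strand; Ptpn5, chr7:47133685-47133934, minus strand) and 2 that rose (Prkacb, chr3:146812947-146813196, minus strand; Prkar1b, chr5:139150002-139150251, minus strand). The Arpp21 start lies 2216 bases inside the 5′ end of the GENCODE gene. Capitals mark 3 motifs, searched on both strands. The first is TGACG, a short CRE element and part of the motif bound by CREB, a transcription factor that PKA phosphorylates. The second is the GC box, spelled GGGCGG, and the last is the CCAAT box, spelled by its name.
Arpp21: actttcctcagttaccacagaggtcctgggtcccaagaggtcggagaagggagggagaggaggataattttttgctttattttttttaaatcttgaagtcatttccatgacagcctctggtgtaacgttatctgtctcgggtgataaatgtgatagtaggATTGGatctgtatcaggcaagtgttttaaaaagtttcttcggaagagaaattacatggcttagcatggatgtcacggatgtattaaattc
Ptpn5: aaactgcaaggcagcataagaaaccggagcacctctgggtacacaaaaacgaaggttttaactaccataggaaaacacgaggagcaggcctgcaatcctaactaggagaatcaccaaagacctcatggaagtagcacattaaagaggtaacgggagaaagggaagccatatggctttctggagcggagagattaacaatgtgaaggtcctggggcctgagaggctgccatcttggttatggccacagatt
Prkacb: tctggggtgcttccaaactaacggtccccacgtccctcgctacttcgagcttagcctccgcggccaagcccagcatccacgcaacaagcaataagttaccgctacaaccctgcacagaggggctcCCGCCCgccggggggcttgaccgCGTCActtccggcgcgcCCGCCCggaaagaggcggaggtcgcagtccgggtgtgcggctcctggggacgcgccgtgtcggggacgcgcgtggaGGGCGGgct
Prkar1b: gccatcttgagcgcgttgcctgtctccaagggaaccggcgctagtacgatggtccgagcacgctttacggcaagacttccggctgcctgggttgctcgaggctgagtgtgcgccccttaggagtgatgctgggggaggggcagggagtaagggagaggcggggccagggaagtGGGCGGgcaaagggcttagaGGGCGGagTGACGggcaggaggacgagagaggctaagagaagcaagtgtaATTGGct
A short CRE element stood 102 bases before the start of Prkacb and another 49 bases before that of Prkar1b. The nearest windows of Arpp21 and Ptpn5, printed above, held none. Windows before 2 farther starts of Arpp21, chr9:112217261 and chr9:112185949, each held 1, at 52 and 36 bases before the start. Of the other genes, Prkaca had 2 in its nearest window, and Arpp19 and Prkar2b had none. Across 32851 promoter windows of this length, 17.8% held the short CRE element, 1.55% the full palindrome TGACGTCA (in which the element overlaps its own reverse), 32.7% a GC box and 33.9% a CCAAT box. G and C made up 69.2% of the Prkacb window and 62.8% of the Prkar1b window, against 40.4% for Arpp21 and 48.0% for Ptpn5. The nearest windows of the other genes had 75.6% (Prkar2b, which differed little with Q140), 68.8% (Prkaca) and 51.2% (Arpp19, which fell). The other Ptpn5 window, 1086 bases from the gene's 5′ end, had 66.0%. Base composition thus did not follow the direction of change in all of these windows. A match is a description of letters only, and no match says only that those letters are not in the window.

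Q140 mice had less mRNA for the phosphoproteins and phosphatases and slightly more for 2 PKA subunits. Against wild type, edgeR's quasi-likelihood test with Benjamini-Hochberg adjustment over all genes called 6 of the 10 genes lower (Ppp1r1b, Ppp1r1a, Arpp19, Arpp21, Ptpn5 and Ppp3ca) and 3 higher (Prkar1b, Prkacb and Prkaca). The call on Prkaca held in 6 of 13 alternative analyses. Among all genes tested 16.5% were called lower and 18.2% higher. The same 6 were lower on Ccdc82+/- (background 16.7% lower, 18.4% higher) and on Ccdc82-/- (15.7% lower, 17.5% higher), and Prkar1b and Prkacb were higher on both. In the mean of the 3 backgrounds, 7 were lower and 2 higher (background 25.5% lower, 28.8% higher). The median log2 change of the 10 genes was -0.41, -0.49 and -0.42 on the 3 backgrounds, and over all genes it lay within 0.02 of 0. Each background had its own controls.

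**Figure D2:**
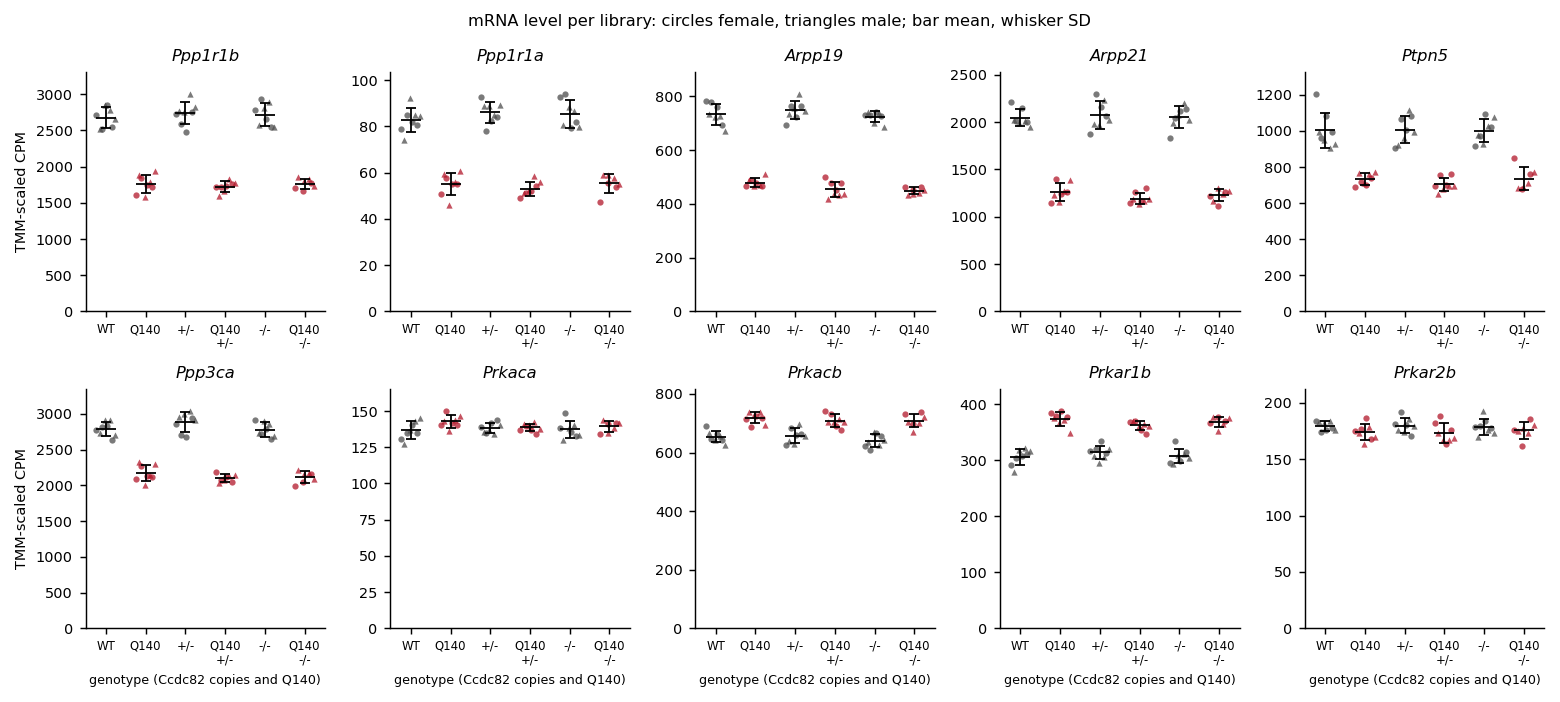
TMM-scaled CPM of the 10 genes in every library, by genotype (WT, wild type; +/- and -/-, Ccdc82 genotype; red, Q140), with circles for females, triangles for males, a bar at the mean and whiskers of 1 SD (n = 8, and 7 for Q140 -/-). For Ppp1r1b, Ppp1r1a, Arpp19, Arpp21, Ptpn5 and Ppp3ca every red point lies below every grey point of its background, and for Prkar1b every red point lies above.

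The 4 phosphoprotein genes fell more than the 2 phosphatase genes on each background. Ppp1r1b (ENSMUSG00000061718, chr11:98348404-98357796, plus strand, GRCm38) encodes DARPP-32, the inhibitor by which dopamine signals restrain PP1. Its level, in CPM scaled by the TMM library factors, had a lowest, median and highest value of 2517, 2678 and 2855 in wild type and 1580, 1767 and 1942 in Q140. On Ccdc82+/- those values were 2483, 2754 and 3006 without and 1589, 1727 and 1827 with Q140. On Ccdc82-/- they were 2546, 2718 and 2937 without and 1658, 1770 and 1850 with Q140. All Q140 libraries thus lay below all control libraries on each background, with a gap wider than the spread within either group. The log2 change was -0.60 ± 0.04 (SE; edgeR adjusted p = 2.76e-18), -0.67 ± 0.04 (5.53e-20) and -0.63 ± 0.04 (2.18e-18) in turn, or -34.1%, -37.0% and -35.3%.

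Ppp1r1a (ENSMUSG00000022490, chr15:103530279-103538003, minus strand) encodes inhibitor 1, the PP1 inhibitor related to DARPP-32 that is found across the forebrain. Its lowest, median and highest CPM were 74.3, 83.2 and 92.3 in wild type and 46.1, 55.6 and 60.6 in Q140. With Ccdc82+/- they were 78.2, 86.8 and 92.6 against 48.9, 52.4 and 58.6, and with Ccdc82-/- 79.3, 84.1 and 94.2 against 47.3, 55.6 and 59.2. The groups did not overlap on any background. Its log2 change was -0.59 ± 0.05, -0.70 ± 0.05 and -0.63 ± 0.05 (edgeR adjusted p = 2.67e-14, 7.61e-17 and 1.12e-14). Ppp1r1a and Ppp1r1b moved by so similar a factor that inhibitor 1 kept its share of their summed FPKM, with a median of 6.59% in wild type and 6.64% in Q140 and overlapping ranges.

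Arpp19 (ENSMUSG00000007656, chr9:75037614-75060313, plus strand) encodes a small phosphoprotein whose relative, Ensa, inhibits PP2A in the same manner. Wild type libraries ran from 671 to 781 CPM (median 730.4) and Q140 libraries from 465 to 511 (median 473). With Ccdc82+/- the values ran from 695 to 809.7 (median 751) and from 417 to 499 (median 446), and with Ccdc82-/- from 687 to 742 (median 730.1) and from 432 to 465 (median 450.2). The gap between Q140 and control libraries was over 100 CPM on every background. In log2 terms the change was -0.61 ± 0.03, -0.72 ± 0.03 and -0.69 ± 0.03 (edgeR adjusted p = 4.47e-22, 7.72e-25 and 4.48e-23). By p in the mean of the 3 backgrounds, Arpp19 stood second among all 19193 genes.

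Arpp21 (ENSMUSG00000032503, chr9:112065091-112235938, minus strand) encodes a calmodulin-associated phosphoprotein of striatal neurons and had the largest log2 change of the 10 genes on each background. Its lowest, median and highest CPM were 1949, 2013 and 2212 in wild type and 1147, 1247 and 1400.1 in Q140. On Ccdc82+/- they were 1873, 2044 and 2299 against 1135, 1174 and 1308, and on Ccdc82-/- 1831, 2059 and 2206 against 1118, 1239 and 1304. Every Q140 library stood below every control. The log2 change was -0.70 ± 0.04, -0.80 ± 0.04 and -0.74 ± 0.04 (edgeR adjusted p = 9.39e-19, 5.7e-21 and 5.01e-19), or -38.3%, -42.5% and -40.2%. The Arpp21 locus overlaps 2 noncoding genes on the other strand, 2310075C17Rik and 2900079G21Rik, whose mean counts of 107 and 267 are small beside the 78891 of Arpp21.

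Among the phosphatases the falls were smaller. Ptpn5 (ENSMUSG00000030854, chr7:47077795-47133684, minus strand) had lowest, median and highest CPM of 904, 978 and 1207 in wild type and 691, 727 and 774 in Q140. With Ccdc82+/- these were 907, 1000.3 and 1116 against 650.1, 697 and 760.2, and with Ccdc82-/- 919, 998 and 1095 against 678, 709 and 851. Again no groups overlapped, although wild type female replicate 1 and Q140 Ccdc82-/- female replicate 1 were the highest of their groups. Log2 changes of Ptpn5 were -0.45 ± 0.05, -0.52 ± 0.05 and -0.44 ± 0.05 (edgeR adjusted p = 2.55e-10, 4.7e-12 and 1.06e-09).

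Ppp3ca (ENSMUSG00000028161, chr3:136670124-136937727, plus strand) encodes the main catalytic subunit of brain calcineurin, the calcium-dependent phosphatase that reverses PKA's mark on DARPP-32. Its lowest, median and highest CPM were 2636, 2795 and 2915 in wild type and 2003, 2142 and 2333 in Q140. With Ccdc82+/- they were 2677, 2926 and 3047 against 2036, 2101 and 2193, and with Ccdc82-/- 2653, 2758 and 2912 against 1986, 2159 and 2213. Control and Q140 libraries were separate throughout. The log2 change was -0.36 ± 0.03, -0.46 ± 0.03 and -0.40 ± 0.03 (edgeR adjusted p = 3.62e-15, 6.62e-19 and 5.31e-16), the smallest of the 6 falls.

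The PKA subunits did not follow the phosphoproteins. Prkar1b (ENSMUSG00000025855, chr5:139017306-139150001, minus strand), the neuronal type I regulatory subunit, had lowest, median and highest CPM of 280.0, 309.7 and 322 in wild type and 349, 377 and 389 in Q140. With Ccdc82+/- they were 295, 316 and 334 against 347, 363 and 371, and with Ccdc82-/- 294, 308 and 335 against 352, 371 and 378. All Q140 libraries lay above all controls on each background. Prkar1b had log2 changes of 0.29 ± 0.03, 0.20 ± 0.03 and 0.26 ± 0.03 (edgeR adjusted p = 6.36e-13, 7.32e-09 and 2.39e-11), a rise by 22.04%, 15.2% and 20.02%.

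Prkacb (ENSMUSG00000005034, chr3:146729574-146812990, minus strand), the catalytic beta subunit, had lowest, median and highest CPM of 624.96, 652 and 691 in wild type and 686, 723 and 739 in Q140. With Ccdc82+/- they were 625.3, 659.6 and 697.5 against 678, 705 and 743, and with Ccdc82-/- 609, 640.1 and 670.0 against 671, 703 and 738. The ranges overlapped slightly on the first 2 backgrounds, where 7 of 8 and 6 of 8 Q140 libraries exceeded every control, and were just separate on the third. The log2 change was 0.13 ± 0.02, 0.11 ± 0.02 and 0.15 ± 0.02 (edgeR adjusted p = 1.02e-05, 0.000251 and 4.74e-06).

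Prkaca (ENSMUSG00000005469, chr8:83972993-83996443, plus strand), the catalytic alpha subunit, had lowest, median and highest CPM of 127, 136 and 145 in wild type and 136, 142 and 150.3 in Q140. With Ccdc82+/- they were 134, 138 and 144 against 134, 139 and 142, and with Ccdc82-/- 130.1, 137 and 149 against 134, 141 and 144. The groups overlapped on all 3 backgrounds. The log2 difference was 0.06 ± 0.02, 0.004 ± 0.02 and 0.02 ± 0.03 (edgeR adjusted p = 0.0402, 0.918 and 0.544). The first of these passed in 6 of 13 alternatives and was above 0 in all 13. It did not pass, for example, with DESeq2 (adjusted p = 0.0522) or without wild type male replicate 1 (log2 difference 0.05, adjusted p = 0.122), and the second changed sign with DESeq2's size factors (-0.001). On log2(FPKM + 0.1), which has no TMM scaling, limma called Prkaca higher on all 3 backgrounds, by 0.12, 0.07 and 0.09 (adjusted p = 0.000182, 0.016 and 0.00584). The median gene was itself 0.05, 0.08 and 0.07 higher on that scale.

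Prkar2b (ENSMUSG00000002997, chr12:31958476-32061296, minus strand) is the neuronal type II regulatory subunit and differed little. Its lowest, median and highest CPM were 174, 179.7 and 184 in wild type and 163, 174 and 186 in Q140. With Ccdc82+/- they were 170.4, 179.8 and 192 against 164, 171 and 189, and with Ccdc82-/- 169.6, 178 and 193 against 162, 176 and 186. All these ranges overlapped. The log2 difference was -0.05 ± 0.03, -0.05 ± 0.03 and -0.03 ± 0.03 (edgeR adjusted p = 0.215, 0.132 and 0.536), and -0.04 ± 0.02 in the mean of the 3 backgrounds (adjusted p = 0.0263). On FPKM the mean over backgrounds was 0.02 (limma adjusted p = 0.258), so the direction turned with the scaling and the call ended.

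Counted by separation of libraries, 6 of the 10 genes had all Q140 libraries below all controls on each background, where 5.07% (wild type), 5.76% (Ccdc82+/-) and 5.36% (Ccdc82-/-) of all genes did. Prkar1b, with Prkacb on Ccdc82-/-, had all Q140 libraries above, where 4.7%, 4.52% and 4.12% of all genes did. The summed level of 9 cortical excitatory neuron markers ran from 125 to 139.7 CPM in wild type and from 151 to 174 CPM in Q140. The median log2 change of these markers was -0.28 against wild type, -0.11 on Ccdc82+/- and 0.25 on Ccdc82-/-. In the mean of the 3 backgrounds it was 0.02, with 3 markers called higher and 2 lower. Of the 9 markers 3 rose (Cux2 and Lamp5 among them) and 3 fell (Slc17a7, Neurod6 and Rorb) against wild type, none was at 0 in all libraries, and Lamp5 gave most of the sum (median 94.8 CPM in wild type, 118 in Q140). Slc17a7, the vesicular glutamate transporter of cortical neurons, had a median of 2.695 CPM in wild type and 2.10 in Q140. Their part in the rise of Prkar1b and Prkacb was not tested.

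**Figure D3:**
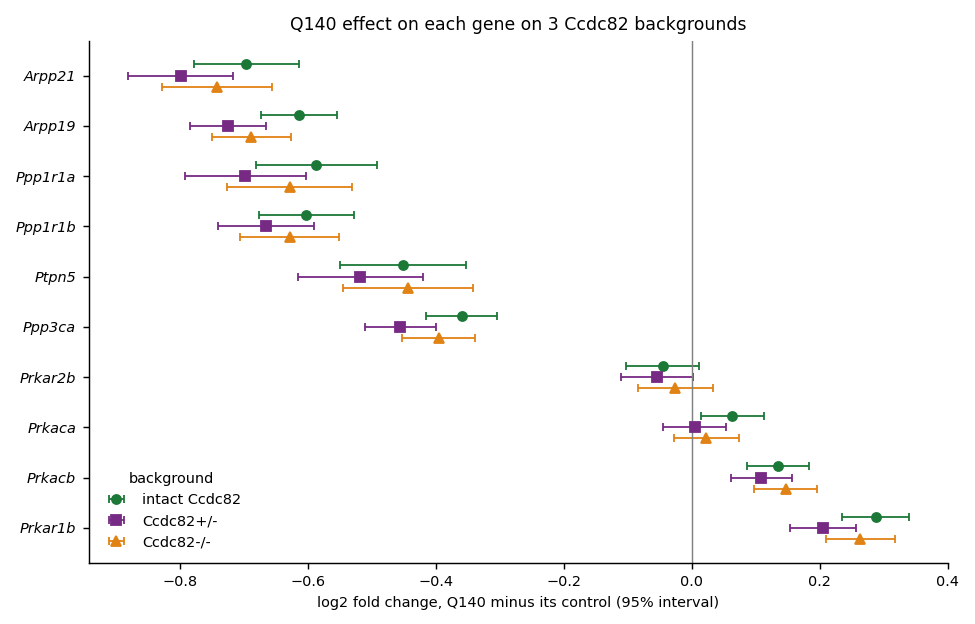
Log2 fold change with its 95% interval for Q140 against its own control, for each gene on intact Ccdc82 (circles), Ccdc82+/- (squares) and Ccdc82-/- (triangles), from edgeR over 47 libraries. The 6 phosphoprotein and phosphatase genes lie between -0.80 and -0.36, Prkar1b and Prkacb lie between 0.11 and 0.29, and Prkar2b and Prkaca lie near 0.

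Composition within each family shifted for the genes that changed by unequal factors. Shares are of the summed FPKM of a family and are given as descriptions without a test. Prkar2b made up a median of 17.3% (range 17.1% to 18.3%) of the PKA regulatory subunits in wild type and 15.5% (14.6% to 15.9%) in Q140. Prkar1b went from 29.0% (26.8% to 29.9%) to 31.8% (30.8% to 32.4%), and neither gene's ranges overlapped. On Ccdc82+/- the Prkar2b ranges overlapped (16.4% to 17.7% against 14.9% to 16.5%) and the Prkar1b ranges were separate. On Ccdc82-/- the Prkar1b ranges overlapped (27.5% to 31.1% against 30.6% to 32.9%) and the Prkar2b ranges were separate. Prkar1a, the ubiquitous type I subunit, held 51.6% in wild type and 50.7% in Q140 with overlapping ranges, and Prkar2a held 2.21% and 2.32%. Prkacb made up 57.4% of the 2 catalytic subunits in wild type and 59.3% in Q140, again with overlap. The ratio of summed regulatory to summed catalytic FPKM had a median of 2.17 in wild type (2.12 to 2.21) and 2.22 in Q140 (2.15 to 2.30).

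Calcineurin and the ENSA family showed clearer shifts. Ppp3ca made up 83.9% (83.4% to 84.1%) of calcineurin catalytic FPKM in wild type and 79.5% (78.8% to 80.4%) in Q140, with Ppp3cb going from 14.6% to 18.5% and Ppp3cc from 1.54% to 1.999%. The same was seen on Ccdc82+/- (84.1% without and 79.3% with Q140) and on Ccdc82-/- (83.7% and 79.3%). Computed from scaled counts without division by length, the median share of Ppp3ca differed by -2.90, -3.13 and -2.91 percentage points. Arpp19 made up 78.3% (77.1% to 79.7%) of the Arpp19 and Ensa sum in wild type and 69.6% (68.9% to 71.8%) in Q140, and no ranges overlapped on any background. Ensa itself differed by a log2 value of 0.03 ± 0.01 in the mean of the 3 backgrounds (edgeR adjusted p = 0.0453) and Ppp3cb by 0.02 ± 0.01 (adjusted p = 0.21).

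**Figure D4:**
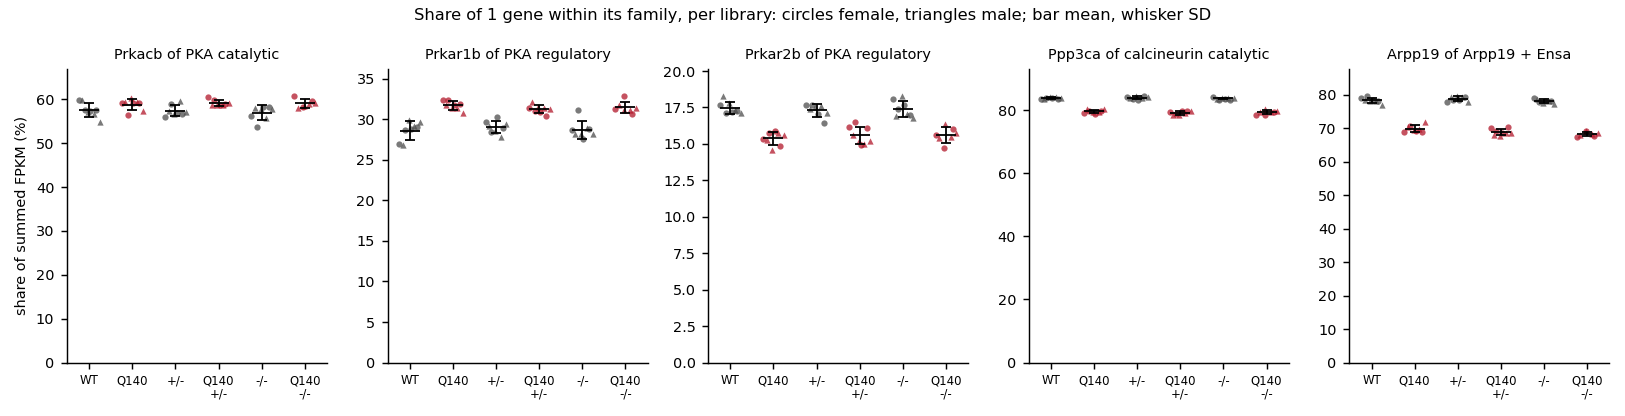
Share of 1 gene in the summed FPKM of its family (percent, axis from 0), per library and genotype, with circles for females, triangles for males, a bar at the mean and whiskers of 1 SD. Arpp19 drops from a median of 78.3% in wild type to 69.6% in Q140 and Ppp3ca from 83.9% to 79.5%, while Prkacb stays at 57.4% and 59.3% with overlapping points.

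The 10 lists of other genes around PKA were described by their counts in the mean of the 3 backgrounds, beside the 25.5% of all genes called lower and 28.8% called higher. The genes that set cAMP fell most often: 15 of 20 were lower and 2 higher (median log2 change -0.17). The dopamine receptor Drd1 (-0.59 ± 0.02), the striatal adenylyl cyclase Adcy5 (-0.66 ± 0.02) and the phosphodiesterases Pde10a (-0.80 ± 0.03) and Pde1b (-0.61 ± 0.02) had the smallest p among them, and all 4 are also medium spiny neuron markers. Protein phosphatase 1 came next, with 7 of 10 tested genes lower and 1 higher (median -0.23). Its catalytic subunits Ppp1ca (-0.39 ± 0.02) and Ppp1cb (-0.20 ± 0.01), its spine-targeting subunit spinophilin (Ppp1r9b, -0.44 ± 0.01) and its actin-linked partner Phactr1 (-0.34 ± 0.02) all fell. Ppp1r1c, the third gene of the inhibitor family, was under the count filter and not tested.

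The remaining PKA genes went both ways. Of the other subunits, Prkar1a (0.09 ± 0.01) and Prkar2a (0.23 ± 0.03) rose and the related kinase Prkx fell (-0.10 ± 0.03). Of 3 PKA inhibitors, Pkia rose (0.14 ± 0.04), Pkig fell (-0.27 ± 0.02) and Pkib did not pass (-0.03 ± 0.07). Of 13 genes named as A-kinase anchoring proteins, which hold PKA at its sites in the cell, 6 fell and 1 rose. Akap9 (-0.31 ± 0.03), Akap13 (-0.17 ± 0.02) and Akap5 (-0.11 ± 0.02) fell and Akap12 rose (0.12 ± 0.04). Among 7 genes for other proteins that answer to cAMP, some of them through PKA, 4 fell and 1 rose. The coactivator Crtc1 (-0.15 ± 0.01), the exchange factor Rapgef2 (-0.12 ± 0.02) and Crem (-0.12 ± 0.04) were lower, and the transcription factor Creb1 was higher (0.13 ± 0.02).

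The kinases and phosphatases that act beside PKA changed less uniformly. Of 8 genes for other kinases of DARPP-32, 3 rose and 2 fell, with the casein kinase genes Csnk1d (0.09 ± 0.01) and Csnk2b (0.10 ± 0.02) higher and the CDK5 activators Cdk5r1 (-0.13 ± 0.02) and Cdk5r2 (-0.23 ± 0.02) lower. Of 16 genes of PP2A and its ENSA axis, 5 rose and 5 fell. The regulatory subunits Ppp2r2a (-0.39 ± 0.02), Ppp2r2c (-0.20 ± 0.01) and Ppp2r5d (-0.19 ± 0.02) fell, and Ppp2r3a rose (0.17 ± 0.02). Among 12 other calcineurin genes 6 fell and 2 rose. The regulatory subunit Ppp3r1 (-0.23 ± 0.02) and the calmodulin gene Calm2 (-0.21 ± 0.02) fell, while Ppp3cc (0.11 ± 0.03) and the regulator Rcan3 (0.13 ± 0.02) rose. Of 9 relatives and substrates of STEP, 5 fell and 1 rose. The phosphatase Ptpn7 (-1.14 ± 0.05), the tyrosine kinase Ptk2b (-0.20 ± 0.01) and the NMDA receptor subunit Grin2b (-0.21 ± 0.03) fell.

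**Figure D5:**
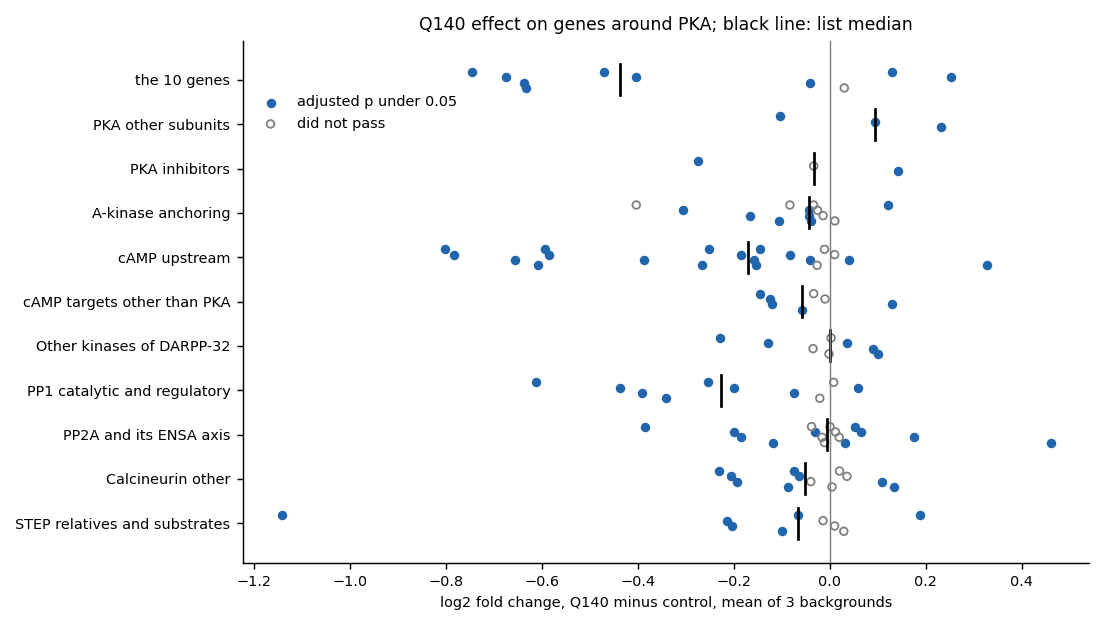
Log2 fold change with Q140 in the mean of 3 backgrounds for each gene of the 10 lists and for the 10 genes themselves, filled where the edgeR adjusted p is under 0.05, with a black line at each list's median. The medians of the cAMP upstream list (-0.17) and of the PP1 list (-0.23) lie to the left of those of the other lists, and the 10 genes have a median of -0.44.

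Loss of Ccdc82 left no call on any of the 10 genes. With edgeR, 0 of 10 passed for Ccdc82+/- and for Ccdc82-/- against wild type and for Q140 Ccdc82+/- and Q140 Ccdc82-/- against Q140, where 0.00521% of all genes, Ccdc82 itself, passed in each. At an unadjusted p under 0.05 there were 0, 0, 1 and 1 of the 10, and 628, 804, 1101 and 712 of all 19193 genes. DESeq2 and limma on FPKM also called 0 of the 10. The 1 gene in both Q140 comparisons was Arpp19, with a log2 difference of -0.08 ± 0.03 for Q140 Ccdc82+/- (adjusted p = 0.858) and -0.09 ± 0.03 for Q140 Ccdc82-/- (adjusted p = 1). Both comparisons share the Q140 libraries. Without Q140 its log2 differences from wild type were 0.03 ± 0.03 and -0.02 ± 0.03. Arpp19 and Arpp21 lie on chromosome 9, as does Ccdc82 (chr9:13246955-13292520).

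How large an effect of Ccdc82 these data leave room for is given by the intervals. For Ppp1r1b the 95% interval of the log2 difference was -0.04 to 0.11 for Ccdc82+/- and -0.05 to 0.10 for Ccdc82-/- against wild type. Within Q140 it was -0.11 to 0.04 and -0.08 to 0.07, narrow beside the Q140 effect of -0.60 on this gene. Genes with a smaller Q140 effect leave more room in proportion. The interaction of Q140 with Ccdc82+/- called 0 of the 10 genes (0% of all genes), and that with Ccdc82-/- 0 of 10 (0% of all genes). DESeq2 and limma called 0 as well. At an unadjusted p under 0.05 there were 3 of the 10 for Ccdc82+/- (1011 of all 19193 genes) and 0 for Ccdc82-/- (826 of all 19193 genes). The 3 were Arpp19 (log2 difference -0.11 ± 0.04), Ppp3ca (-0.10 ± 0.04) and Prkar1b (-0.08 ± 0.04), each with an edgeR adjusted p of 0.914. Their 95% intervals were -0.20 to -0.03, -0.17 to -0.02 and -0.16 to -0.009, the last beside a Q140 effect of 0.29 against wild type. The median interaction of the 10 genes was -0.07 with Ccdc82+/- and -0.03 with Ccdc82-/-. Over all genes it was -0.0003 and 0.0008.

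None of the 10 genes passed the test between the sexes. Between males and females 8.67% of all genes passed with edgeR and 0 of the 10. Arpp19 (-0.04 ± 0.02, adjusted p = 0.136) and Ppp3ca (0.04 ± 0.02, adjusted p = 0.157) had an unadjusted p under 0.05, as had 4645 of all 19193 genes. DESeq2 called 0, and limma on FPKM called 1, Ppp3ca (0.05, adjusted p = 0.0431). The difference of the Q140 effect between males and females passed for 0 of the 10 genes (0% of all genes), and for 0 by DESeq2. At an unadjusted p under 0.05 there were 0 of the 10 and 594 of all 19193 genes. For Ppp1r1b that difference was -0.0005 with a 95% interval of -0.09 to 0.09.

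Within genotype and sex, some of the 10 genes varied together from library to library. The correlation r of log2 CPM was computed after removing each genotype and sex mean. It is given without a test, because the 47 libraries share their scaling. The closest pairs were Ppp1r1b with Ppp3ca (r = 0.761) and with Ppp1r1a (0.725), and Arpp21 with Ptpn5 (0.650). The 2 groups so formed were not alike, since Ppp1r1b with Ptpn5 gave 0.178 and Ppp1r1a with Ptpn5 gave -0.341. The lowest value was that of Ppp1r1a with Prkacb (-0.521). The catalytic subunits Prkaca and Prkacb gave -0.307 with each other.

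Among 13852 other genes compared over the same 47 libraries, the closest to Ppp1r1b were Hpca (r = 0.846), a neuronal calcium sensor, and Pde1b (0.832), a calmodulin-dependent phosphodiesterase. Ptpn5 was closest to Gnb5 (0.916) and Syt6 (0.899), and Ppp3ca to AI593442 (0.924) and to Ppp3r1 (0.894), which encodes its own regulatory subunit. Prkacb was closest to Prkar1a (0.825), a regulatory subunit of its own enzyme, and Yme1l1 (0.820). For Ppp1r1a the closest were Gm996 (0.868) and Itpka (0.860), and for Arpp21 they were Rasgef1a (0.759) and the enkephalin precursor Penk (0.756). The values were lower for Arpp19, with Rbfox1 (0.701) and Mrps36-ps1 (0.684), and for Prkar2b, with Pbx3 (0.757) and Hs6st2 (0.731). Prkaca was closest to Slc25a22 (0.769) and Coq8a (0.741), and Prkar1b to Maged1 (0.796) and Galnt16 (0.775).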

How the data were processed

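Striatal RNA was sequenced from Illumina TruSeq stranded libraries, per the labels' protocols. STAR 2.7.5c, SAMtools 1.10 and HTSeq 0.12.3 and the build GRCm38 (mm10) are named in the submitters' processing notes; the strand setting of the counting is not given in the sources used here. The deposited values were raw counts per gene and FPKM, which the authors computed from those counts: each FPKM equalled count over total over gene length.

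Counts were tested with edgeR 4.0.16 (R 4.3.3): filterByExpr, TMM, quasi-likelihood test, 1 coefficient per group plus sex, all 47 libraries, Benjamini-Hochberg adjustment over 19193 genes and a threshold of 0.05. Alternatives were DESeq2 1.42.0, RLE factors, no filter, no sex term, a plate column term, a replicate block, only the groups compared, each sex alone, leaving out single libraries, and limma 3.58.1 on log2(FPKM + 0.1) or log2(FPKM + 1) for genes with mean FPKM of at least 0.1. The testing script was first run on simulated data. Marker sums used unscaled CPM. Coordinates came from GENCODE M21 (GRCm38), which held 48435 of the 48795 gene IDs. Genes of the pathway lists and of the likeness search were named by a rule: the 10 members, the 4 genes with the smallest p in each list, the family partners, and the 2 nearest genes by r of each member. A few genes that the rule names are not reported here. Marker genes and genes overlapping a member were named after their values were seen. The members and lists were chosen with earlier results of these data known. Labels do not say how the mice were bred or housed, and p-values measure the spread between these libraries.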

Additional observations from a re-analysis of the deposited data

How the results depend on the processing

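The 6 falls and the rises of Prkar1b and Prkacb kept their direction and their calls under every alternative run on the 3 Q140 comparisons and their mean, with log2 changes for Ppp1r1b against wild type between -0.62 and -0.55. Over the 10 genes and these comparisons, 481 log2 changes kept direction and call, 12 reversed, 7 gained and 10 lost a call, and all that changed were of Prkaca or Prkar2b. Prkar2b turned to 0.0098 and 0.0096 (wild type), 0.015 and 0.015 (Ccdc82+/-), 0.039 and 0.039 (Ccdc82-/-) and 0.022 and 0.021 (mean) on log2 FPKM with a pseudocount of 0.1 and of 1. Prkaca turned to -0.0015 (RLE), -0.0014 (DESeq2) and -0.034 (females only) on Ccdc82+/- and to -0.0012 (females only) on Ccdc82-/-; the cause was not tested. The number of all genes called fell from 6655 to 4321 (females only) and 3922 (males only) against wild type, from 6726 to 3324 (females only) on Ccdc82+/-, and from 6367 to 3452 (females only) and 3783 (males only) on Ccdc82-/-, with fewer libraries in each fit. Members called between the sexes went from 0 to 1 on FPKM with either pseudocount. With the replicate number of each sex as a block, 6647 genes were called against wild type, and no call on the 10 genes changed. Same-numbered libraries did not deviate together (mean r of 0.0066 over 115 pairs, -0.002 for other numbers), and 8 of 47 libraries were closest to their own number. The number only counts libraries within a genotype and sex, so this cannot show whether mice were grouped in another way. Library names share prefixes across genotypes, and grouping by these was not tested. The alternative without Ccdc82-/- male replicate 1 was chosen after seeing the data. The member with the fewest counts, Ppp1r1a, had at least 2154 in each library.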
